A study of Mus musculus with 34 samples.

Results

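The WNT genes of this mouse chromatin dataset were the secreted WNT ligands (Wnt), their Frizzled receptors (Fzd) and the secreted antagonists of the Sfrp and Dkk families. Members were chosen by name alone: every gene symbol in the deposited peak tables that begins with Wnt, Fzd, Sfrp or Dkk and a number was taken. This gave 34 of the 18835 symbols in the tables, namely 18 Wnt, 9 Fzd, 3 Sfrp and 4 Dkk genes. A position on the mm9 reference could be worked out for 32 of them, as the point from which the tables measure the distance of each peak. That point was agreed by 2 to 25 peak summits per member and stands for a gene start. For 5 members more than 1 point could be worked out, and the point with most agreeing summits was kept. The other point was 5932 bp away at Wnt5a, 94966 bp at Wnt5b, 3512 bp at Wnt7b, 3733 bp at Wnt11 and 610 bp at Dkk3. Dkk4 and Sfrp4 had 1 peak each and could not be placed. The comparison set was all 16001 symbols placed in the same way, called placed genes here.

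Proteins tagged with FLAG were mapped by chromatin immunoprecipitation and sequencing with the anti-FLAG M2 antibody. SMARCA4 is the catalytic subunit of SWI/SNF, a complex that slides and evicts nucleosomes, and SMARCC2 is one of its core subunits. EP300 acetylates histones, and NCOA1 and NCOA2 are coactivators that bind nuclear receptors. Tissue came from 129/C57BL/6 embryos of embryonic day 11.5 pooled from both sexes, and embryonic stem cells (ESC) came from the same knock-in line. The 8 SMARCA4 lists are of ESC, heart, limb, face, neural tube and the 3 brain regions forebrain, midbrain and hindbrain. SMARCC2 lists are of face and hindbrain, EP300 lists of face and ESC, and those of both NCOA proteins of hindbrain. The genotype label names a SMARCA4 knock-in on all FLAG samples and their controls, also where the title names another tagged protein. From CD1 embryos of embryonic day 11.5 there were limb and forebrain lists of H3K4me3, H3K27me3 and H3K4me1, and a limb list of H3K27ac. Each of the 30 lists used (14 FLAG, 6 controls, 7 histone, 3 inputs) came from 1 library. There was therefore no replicate check and no test between conditions, and every difference below is between libraries. The tissue libraries came from pooled embryos, so in them a strong peak in few cells and a weak peak in many cells cannot be told apart.

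WNT ligands are lipid-modified secreted proteins that bind Frizzled receptors on neighbouring cells, often with an LRP co-receptor. In the canonical pathway this stabilises beta-catenin, which enters the nucleus and acts with TCF/LEF factors on target genes. Sfrp proteins bind WNT ligands outside the cell, whereas Dkk1 and Dkk2 bind the LRP co-receptors. In the embryo the pathway is known for patterning the limb, face and neural tube, and its genes are used in small, changing domains. H3K4me3 marks gene starts, H3K27me3 is the mark of Polycomb repression, and starts that carry both are often called bivalent. H3K4me1 lies at enhancers and around starts, and H3K27ac at active elements.

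The lists differed widely, and this limits every comparison between tissues. SMARCA4 peaks numbered from 1513 in midbrain to 35099 in face, and their median width from 158 bp in ESC to 3100 bp in forebrain. The tissue label of the hindbrain SMARCA4 sample says forebrain, and it was kept as hindbrain after its title. As a check of the labels, the mean number of SMARCA4 peaks within 100 kb of 5 marker genes of the list's own tissue was divided by the mean over placed genes. The ratio was between 1.45 and 4.45 in 7 lists, limb with 3 and neural tube with 4 of its markers placed. In the hindbrain list it was 0.858, with 0.429 for forebrain, 1.07 for face and 1.43 for limb markers. The check did not single out the forebrain list either: its forebrain and ESC markers both gave 1.45 and its face markers 1.58. All midbrain SMARCA4 peaks near members had a false discovery rate of 100% in the authors' table.

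SMARCA4 peaks lay within 100 kb of every placed WNT gene in face, and of most of them in neural tube, forebrain and heart. Far fewer had any in midbrain, hindbrain or ESC. In face all 32 members had a peak, against 98% of placed genes, and the mean was 7.94 peaks per member against 5.96 per placed gene. In neural tube 30 members had a peak (93.8% against 89.9%), in forebrain 29 (90.6% against 71.5%) and in heart 27 (84.4% against 74.4%). In limb the count was 22 members (68.8% against 63.1%). Hindbrain and ESC each had a peak near 15 members, which is 46.9% against 58.8% and 61.1% of placed genes. Midbrain had one near 8 members (25% against 19.7%). Wnt5b and Sfrp1 were the members with a SMARCA4 peak in all 8 lists, 6.25% of members against 8.59% of placed genes. The peaks near members made up between 0.222% of the ESC list (95% Clopper-Pearson interval 0.124 to 0.366%) and 0.884% of the forebrain list (0.683 to 1.13%). Such intervals cover counting error only.

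**Figure D1:**
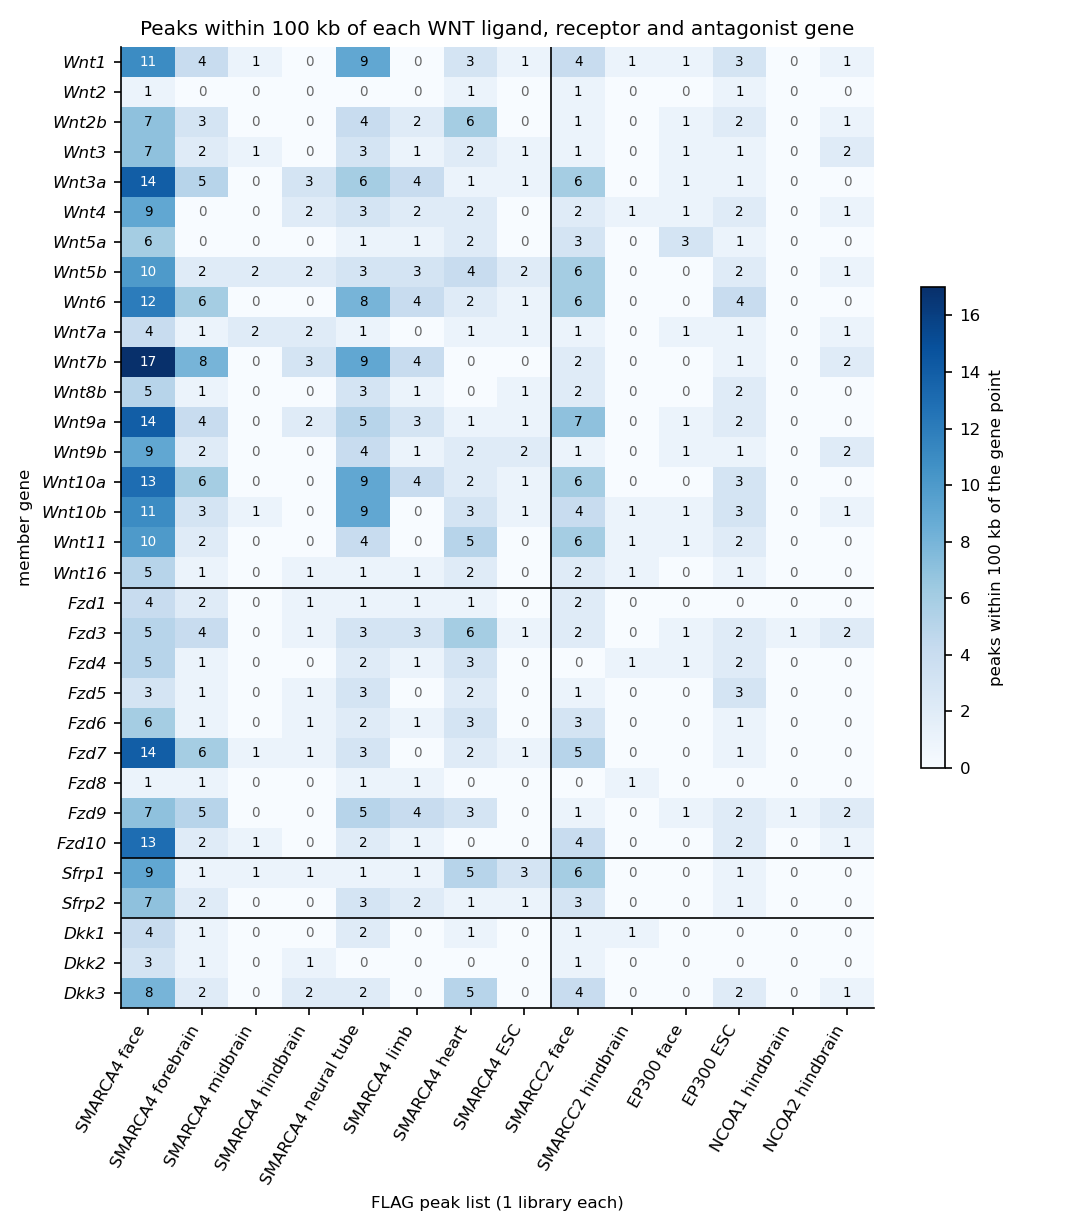
Number of peaks with their midpoint within 100 kb of each of the 32 placed WNT genes (vertical axis, ordered by family) in each FLAG list (horizontal axis, 1 library each). The SMARCA4 face column is the darkest, with 17 peaks at Wnt7b. Members with a peak were fewest for NCOA1 in hindbrain (2), SMARCA4 in midbrain (8) and SMARCC2 in hindbrain (8).

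Among the ligands the richest surroundings were those of Wnt7b, Wnt10a, Wnt3a and Wnt6. Wnt7b, a ligand known for roles in the developing nervous system, lies on chromosome 15 at position 85408500. It had 17 SMARCA4 peaks in face, 8 in forebrain, 0 in midbrain, 3 in hindbrain, 9 in neural tube, 4 in limb, 0 in heart and 0 in ESC. This was the highest count of any member in face and forebrain, together with an empty heart list. The regions that most tissues shared lay at higher coordinates than the gene. The regions chr15:85454851-85458000, 47.9 kb away, and chr15:85481151-85487600, 75.9 kb away, were each found in 5 tissues. The neural tube peak chr15:85500151-85503050, 93.1 kb away, ranked 175 of 14362 in its list and overlapped regions of H3K4me3 and H3K27me3 in limb and forebrain. These regions and this peak also overlapped a control or input list, as did 67.8% of the whole neural tube list. So did 13 of 18 merged SMARCA4 regions near Wnt7b, 9 of 12 near Wnt10a, 9 of 15 near Wnt3a and 8 of 11 near Wnt6. The SMARCA4 midbrain control had 15 peaks near Wnt7b, against a mean of 4.29 per placed gene. The part of the controls in these counts was not tested.

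Several ligands lie in pairs and therefore share their peaks. Wnt1 and Wnt10b are 12827 bp apart, Wnt3a and Wnt9a 16177 bp, Wnt6 and Wnt10a 19624 bp, and Wnt3 and Wnt9b 24402 bp. Wnt10a (chromosome 1, position 74838089) had 13 peaks in face, 6 in forebrain, 0 in midbrain, 0 in hindbrain, 9 in neural tube, 4 in limb, 2 in heart and 1 in ESC. Its neighbour Wnt6 had 12, 6, 0, 0, 8, 4, 2 and 1 in the same order. Both thus followed the pattern of Wnt7b, with neural tube above limb and heart. Over placed genes neural tube was also the highest of these, with means of 2.84 in neural tube, 2.29 in heart and 1.14 in limb. Limb was above heart at Wnt7b, Wnt10a and Wnt6, whereas heart was above limb over placed genes. Wnt3a (chromosome 11, position 59104254), which is needed for the posterior body axis, had 14 in face, 5 in forebrain, 0 in midbrain, 3 in hindbrain, 6 in neural tube, 4 in limb, 1 in heart and 1 in ESC. Wnt9a next to it had 14, 4, 0, 2, 5, 3, 1 and 1. The 7-tissue region chr11:59040001-59043050, 62.7 kb from Wnt3a, lies at another gene's start, and no other region near a member was found in so many tissues.

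Wnt1 (chromosome 15, position 98620287), a ligand of the midbrain-hindbrain boundary and dorsal neural tube, had 11 SMARCA4 peaks in face, 4 in forebrain, 1 in midbrain, 0 in hindbrain, 9 in neural tube, 0 in limb, 3 in heart and 1 in ESC. Wnt10b had 11, 3, 1, 0, 9, 0, 3 and 1. The pair tied with Wnt7b and Wnt10a for the most neural tube peaks, 9 each, and had none in limb. In heart the order was another. Wnt2b (chromosome 3, position 104764627) had 6 heart peaks beside 7 in face, 3 in forebrain, 0 in midbrain, 0 in hindbrain, 4 in neural tube, 2 in limb and 0 in ESC. With Fzd3 it had the most heart peaks of all members. Wnt11, a ligand known for non-canonical signalling and heart development, had 10 in face, 2 in forebrain, 0 in midbrain, 0 in hindbrain, 4 in neural tube, 0 in limb, 5 in heart and 0 in ESC. All 5 heart peaks of Wnt11 and 4 of the 6 of Wnt2b were at places where no other SMARCA4 list had a peak, as were 52.4% of all heart peaks near members and 52.8% of the whole heart list. For example, chr3:104800435-104801129, 36.2 kb from Wnt2b, had 83 tags and a fold enrichment of 5.3 in the authors' table.

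Wnt5a and Wnt5b, close relatives that signal mostly outside the beta-catenin branch, differed. Wnt5b (chromosome 6, position 119494336) had 10 peaks in face, 2 in forebrain, 2 in midbrain, 2 in hindbrain, 3 in neural tube, 3 in limb, 4 in heart and 2 in ESC. Its start region chr6:119489951-119496400 was found in 6 tissues, the most of any member's start. Wnt5a (chromosome 14, position 29318658) had 6 peaks in face, 1 in neural tube, 1 in limb, 2 in heart and 0 in forebrain, midbrain, hindbrain and ESC. Its start held the best-ranked face peak near any member: chr14:29317161-29319408 ranked 106 of 35099. EP300 was found at the same place in face, chr14:29317160-29319442, with 140 tags and a fold of 4.46, at a false discovery rate of 52.2% in the authors' table. The other ligands had summed SMARCA4 counts over the 8 lists from 2 at Wnt2 to 20 at Wnt9b, with 18 at Wnt4, 17 at Wnt3, 12 at Wnt7a, 11 at Wnt8b and 11 at Wnt16. Wnt7a shared the highest midbrain count, 2, with Wnt5b.

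**Figure D2:**
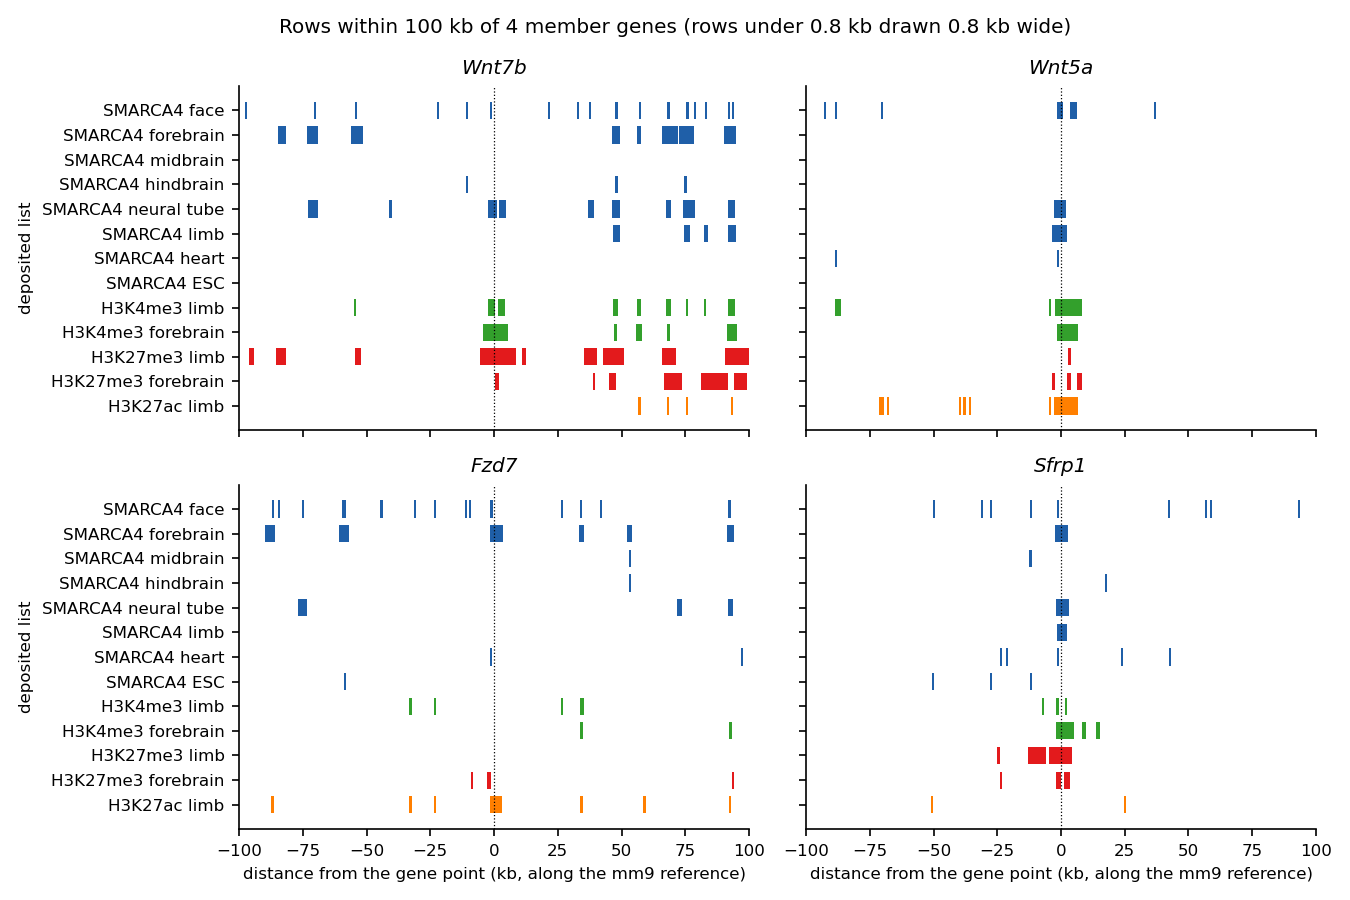
SMARCA4 peaks (blue) and regions of H3K4me3 (green), H3K27me3 (red) and H3K27ac (orange) within 100 kb of Wnt7b, Wnt5a, Fzd7 and Sfrp1, drawn by distance in kb from the gene point along the reference. Wnt7b had 9 neural tube peaks and 51.7 kb of limb H3K27me3, whereas Wnt5a had 1 neural tube peak, at its start, and 1.14 kb of limb H3K27me3.

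The Frizzled receptors averaged 6.44 SMARCA4 peaks in face against 9.17 for the ligands, and 2.56 against 2.78 in forebrain. All 9 had a forebrain and a neural tube peak within 100 kb, against 71.5% and 89.9% of placed genes. In ESC 2 of 9 had one, against 61.1%. Fzd7 (chromosome 1, position 59539022), a receptor prominent in stem cells, had 14 peaks in face, 6 in forebrain, 1 in midbrain, 1 in hindbrain, 3 in neural tube, 0 in limb, 2 in heart and 1 in ESC. Fzd10 had 13 in face, 2 in forebrain, 1 in midbrain, 0 in hindbrain, 2 in neural tube, 1 in limb, 0 in heart and 0 in ESC. Of the 12 merged regions near Fzd10, 9 were in face alone. Fzd9 had 7 in face, 5 in forebrain, 0 in midbrain, 0 in hindbrain, 5 in neural tube, 4 in limb, 3 in heart and 0 in ESC. Fzd3, a receptor needed for axon growth, had 5 in face, 4 in forebrain, 0 in midbrain, 1 in hindbrain, 3 in neural tube, 3 in limb, 6 in heart and 1 in ESC. At Fzd3 and Fzd9 no list stood far above the others, while face led at Fzd7 and Fzd10. Face also led over placed genes, with a mean of 5.96 against 2.84 or fewer in the other SMARCA4 lists. The remaining receptors had summed counts of 14 at Fzd6, 12 at Fzd4, 10 at Fzd1, 10 at Fzd5 and 4 at Fzd8. The single region near Fzd8 lay at its start and was found in 4 tissues.

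Of the antagonists, Sfrp1 (chromosome 8, position 24521989) had 9 SMARCA4 peaks in face, 1 in each of forebrain, midbrain, hindbrain, neural tube and limb, 5 in heart and 3 in ESC. It held the most ESC peaks of any member. Its region chr8:24519551-24525200 at the start was found in 5 tissues, and 10 of its 14 regions were in 1 tissue. Sfrp2 had 7 in face, 2 in forebrain, 0 in midbrain, 0 in hindbrain, 3 in neural tube, 2 in limb, 1 in heart and 1 in ESC. Dkk3 had 8 in face, 2 in forebrain, 0 in midbrain, 2 in hindbrain, 2 in neural tube, 0 in limb, 5 in heart and 0 in ESC. Dkk1, an LRP antagonist needed for head formation, had 4 in face, 1 in forebrain, 0 in midbrain, 0 in hindbrain, 2 in neural tube, 0 in limb, 1 in heart and 0 in ESC. Dkk2 had 5 in all. None of the 3 placed Dkk genes had a limb, midbrain or ESC peak, which 63.1%, 19.7% and 61.1% of placed genes had. The heart peak near Dkk1, chr19:30699539-30700187 at 75.9 kb, had 78 tags and a fold of 5.94, and no other SMARCA4 list had a peak there. The 2 members without a position were seen only in the control of EP300 face: Sfrp4 with 17 tags at 93 bp, chr13:19714852-19715158, and Dkk4 with 9 tags at 2325 bp, chr8:23732116-23732268.

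Relative to placed genes, peaks of the SWI/SNF subunits were more frequent around members in some lists and less frequent in others. Peaks of the coactivators, mapped only in face, ESC and hindbrain, were less frequent. The mean per member divided by the mean per placed gene was 1.64 in forebrain, 1.33 in face, 1.26 in limb, 1.23 in neural tube and 1.18 in midbrain for SMARCA4. It was 0.969 in heart, 0.804 in hindbrain and 0.549 in ESC. SMARCC2 gave 1.70 in face and 1.41 in hindbrain. EP300 gave 0.653 in face and 0.794 in ESC, NCOA2 0.713 and NCOA1, with 2 peaks near members, 0.275. In ESC EP300 was thus above SMARCA4. In hindbrain SMARCA4 was under 1 like both NCOA proteins, and SMARCC2 was above 1. The controls of FLAG samples ranged from 0.479 to 1.76. The 1.76 was that of the SMARCC2 hindbrain control, so a ratio as high as those of SMARCA4 and SMARCC2 was also seen in a control list. The low ratios of EP300 and NCOA2 lay within the range of the controls too, and that of NCOA1 lay below it. The excess in 3 tissues depended on how far down the list peaks were taken. With the 1414 top-ranked peaks of each list, the ratio was 0.885 in face, 0.614 in forebrain and 0.743 in limb. It was 1.35 in neural tube and 1.55 for SMARCC2 in face.

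**Figure D3:**
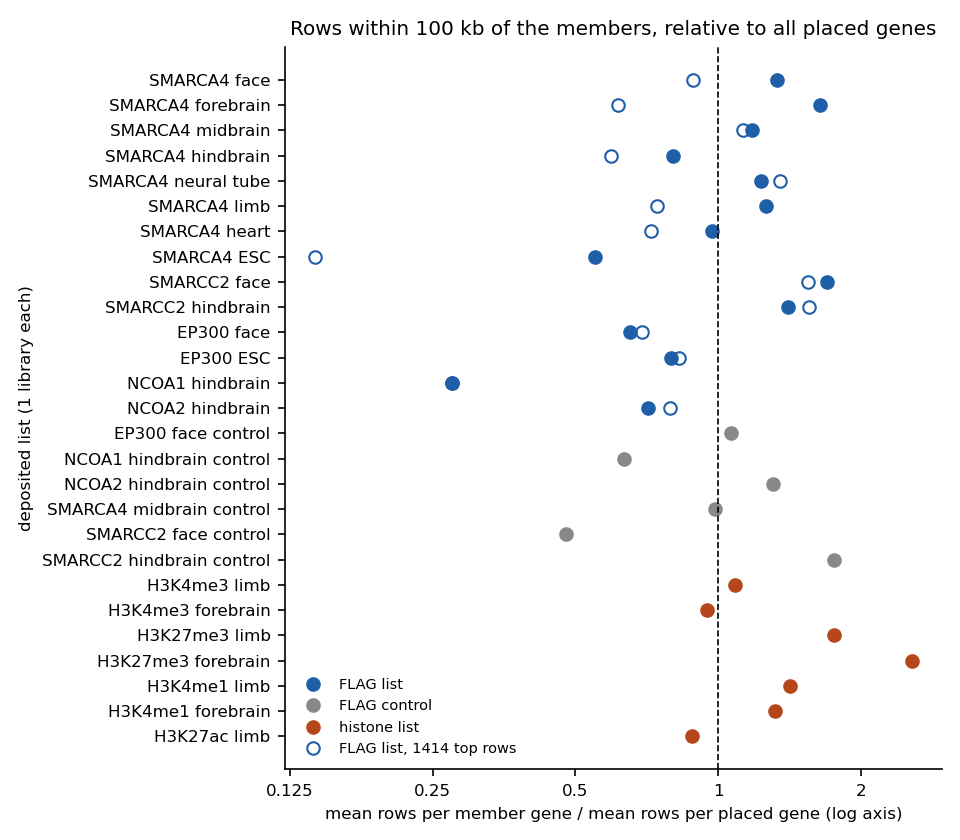
Mean number of peaks within 100 kb per WNT gene divided by the mean per placed gene (horizontal log axis) in each list; filled points use whole lists and open points the 1414 top-ranked peaks of a FLAG list. The 1.70 of SMARCC2 in face stays above 1 among top peaks, and the 1.64 of SMARCA4 in forebrain moves to 0.614.

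SMARCC2 in face was within 100 kb of 30 members (93.8% against 74.2% of placed genes). Among them were all 18 ligands, with a mean of 3.39 peaks against 1.73 per placed gene. Wnt9a had the most, 7. The start of Wnt2b held the peak chr3:104763031-104768055 with 342 tags and a fold of 6.28, rank 33 of 11321, the best of any member. Fzd10 had chr5:129122879-129127599 at 18.3 kb with 348 tags and a fold of 4.84, rank 97. Dkk2 had a start peak of 155 tags and a fold of 6.5, rank 142. These 3 genes stand for a ligand, a receptor and an antagonist, and SMARCA4 of face, forebrain and 1 or more other tissues overlapped each of the 3 peaks, as did a control list. In hindbrain SMARCC2 was near 8 members (25% against 16.3%), always with 1 peak, and none of these 7 distinct peaks overlapped a SMARCA4 peak of any tissue, which was so for 93.3% of the whole list.

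EP300 in face was near 14 members (43.8% against 52.4%) and had its highest count, 3, at Wnt5a. In ESC it was near 28 members (87.5% against 82.9%), all 18 ligands among them, with 4 peaks at Wnt6. NCOA2 in hindbrain was near 13 members (40.6% against 52.8%), and all 15 of its distinct peaks there overlapped a control or input list, as did 93.5% of the whole NCOA2 list. NCOA1 was near Fzd3 and Fzd9 only (6.25% against 20.1%). The Fzd3 start was the place where most hindbrain factors met. SMARCA4 had 45 tags and a fold of 12.14 at chr14:65880594-65881239, NCOA2 64 tags and a fold of 9.54, and NCOA1 17 tags and a fold of 8.13. These peaks also overlapped a control list.

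At the gene starts themselves, 30 of 32 members had a SMARCA4 peak within 1 kb in at least 1 list (93.8% against 75% of placed genes), and 9 had one in 4 or more (28.1% against 21.9%). Wnt2 and Wnt8b had none. Wnt5b and Dkk3 had the most, 5 lists each. By tissue, the start was hit in 22 members in face (68.8% against 68%), 21 in neural tube (65.6% against 48.3%), 14 in forebrain (43.8% against 24.9%) and 11 in limb (34.4% against 23.5%). Hindbrain had 7 (21.9% against 16.7%), heart 6 (18.8% against 17.7%), ESC 1 (Sfrp2, 3.12% against 5.91%) and midbrain 0 (against 1.64%). By this measure SMARCA4 starts were more common than the background in neural tube, forebrain and limb, and near it in face and heart. Peaks covering the point itself were at 25 of 32 members in neural tube (against 51.3%), 18 in forebrain (28.8%) and 11 in limb (24.8%). They were at 12 in face (44.8%), 2 in hindbrain (5.97%) and 0 in heart (3.26%), below the background in each. SMARCC2 of face had a start peak in 10 members (31.2% against 21.3%), EP300 of ESC in 7 (21.9% against 32.7%), NCOA2 in 3 (9.38% against 20%) and EP300 of face in 2 (6.25% against 18%). The control of EP300 face had one in 22 members (68.8% against 61.4%) and that of SMARCA4 midbrain in 19 (59.4% against 62.2%). Over the 14 FLAG lists there were 105 pairs of a member and a list with a start peak, and 8 of them had a peak that overlapped no control or input region (7.62% against 10.4% for placed genes). These 8 were Fzd9 in neural tube, limb and heart SMARCA4, Fzd7 in face SMARCA4 and ESC EP300, Fzd1 in heart SMARCA4, Dkk2 in hindbrain SMARCA4 and Wnt16 in ESC EP300. The part of the controls in the other start peaks was not tested.

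Start sequences were compared because the members' starts differed in their marks. RefSeq sequences of assembly GRCm38.p6, which is not the build of the peaks, were matched by symbol for 24 members with 27 windows of 300 bases, from 250 before to 50 after a RefSeq start. Of these, 74.1% had a ratio of observed to expected CG dinucleotides of at least 0.6, against 35.8% of all 32851 windows. The median ratio was 0.754 against 0.384, and the median GC content 70.7% against 52.7%. The windows of Fzd9, with a ratio of 1.18, and Wnt8b, with 0.345, show a rich and a poor start. The lowest ratio was 0.194, in 1 of the 3 windows of Wnt5b. SMARCA4 over the point was seen at rich and at poor starts. Among rich ones Wnt2b (0.903) had it in 4 tissues and Wnt3a (0.863) in 0. Among poor ones Dkk1 (0.327) and Wnt16 (0.402) had it in 2 each. Fzd9 has no H3K4me3 within 1 kb of its point in limb or forebrain but has SMARCA4 over it in 2 tissues. Wnt8b has SMARCA4 over its point in 0. The 250 bases before each start are given 5′ to 3′ on the gene's strand, with every CG in capitals, 42 in Fzd9 (chr5:135251048-135251297, minus strand) and 5 in Wnt8b (chr19:44493222-44493471, plus strand).
Fzd9: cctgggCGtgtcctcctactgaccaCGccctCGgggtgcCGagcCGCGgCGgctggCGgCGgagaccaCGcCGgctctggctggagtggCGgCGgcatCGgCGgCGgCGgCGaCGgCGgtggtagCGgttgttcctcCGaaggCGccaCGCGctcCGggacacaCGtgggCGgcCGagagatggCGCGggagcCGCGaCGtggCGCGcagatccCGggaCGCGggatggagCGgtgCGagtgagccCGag
Wnt8b: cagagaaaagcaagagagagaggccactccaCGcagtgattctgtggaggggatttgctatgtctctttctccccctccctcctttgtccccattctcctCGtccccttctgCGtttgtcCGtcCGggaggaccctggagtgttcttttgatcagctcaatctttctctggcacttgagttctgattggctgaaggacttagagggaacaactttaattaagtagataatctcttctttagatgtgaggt

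The letters that TCF/LEF factors bind, CTTTGAA or CTTTGAT or CTTTGTA or CTTTGTT on either strand, were found in 5 of the 27 windows, 18.5% against 16.9% of all windows of this length. They were in Dkk1, Fzd7, Wnt3, Wnt5b and Wnt11, and a match to letters is not a binding site. Dkk1, a known target of the pathway it inhibits, had 2 matches in its window, and Fzd7 had 1 on the opposite strand. Both are shown with the matches in capitals, Dkk1 from chr19:30549497-30549746 (minus strand) and Fzd7 from chr1:59481897-59482146 (plus strand), each being the 250 bases before the start.
Dkk1: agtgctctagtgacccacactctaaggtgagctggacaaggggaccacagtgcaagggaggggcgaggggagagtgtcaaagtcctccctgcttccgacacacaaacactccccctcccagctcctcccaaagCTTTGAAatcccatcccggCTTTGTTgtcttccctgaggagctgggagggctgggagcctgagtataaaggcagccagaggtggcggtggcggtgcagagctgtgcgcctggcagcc
Fzd7: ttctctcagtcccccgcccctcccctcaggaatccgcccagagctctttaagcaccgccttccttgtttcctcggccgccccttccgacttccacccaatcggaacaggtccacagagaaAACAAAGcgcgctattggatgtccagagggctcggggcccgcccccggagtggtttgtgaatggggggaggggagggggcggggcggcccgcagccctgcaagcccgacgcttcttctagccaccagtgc

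Within 1 kb of their starts the members most often had H3K4me3 and H3K27me3 together, and more often so in limb than in forebrain. In limb 24 members had regions of both marks within 1 kb (75% against 23.8% of placed genes): 16 of 18 Wnt, 4 of 9 Fzd, Sfrp1 and all 3 placed Dkk genes. Only Wnt5a and Sfrp2 had H3K4me3 without H3K27me3 (6.25% against 48.1%), Fzd10 had H3K27me3 alone (3.12% against 3.66%), and 5 members had neither (15.6% against 24.4%). In forebrain 14 members had both marks (43.8% against 15.3%), 8 had H3K4me3 alone (25% against 55.3%), 3 H3K27me3 alone (9.38% against 2.12%) and 7 neither (21.9% against 27.2%). H3K27ac in limb was within 1 kb of 8 members (25% against 52.7%), which were Wnt5a, Wnt5b, Wnt11, Fzd3, Fzd6, Fzd7, Fzd8 and Dkk2. A region within 1 kb need not cover the point: limb H3K27me3 covered the point of 20 members (62.5% against 22.6%) and forebrain H3K27me3 that of 4 (12.5% against 3.72%). By this measure both marks were at 17 members in limb (53.1% against 18.7%) but at 2 in forebrain (6.25% against 2.79%), where H3K4me3 alone was at 20 (62.5% against 66.3%).

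**Figure D4:**
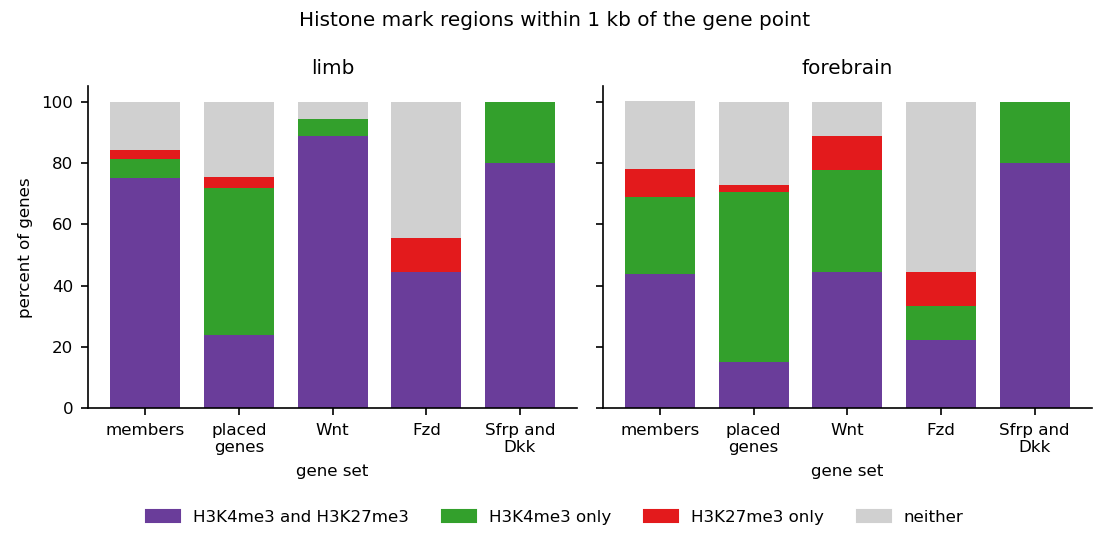
Percent of genes (vertical axis) with regions of H3K4me3, H3K27me3, both or neither within 1 kb of the gene point in limb (left) and forebrain (right), for the 32 WNT genes, the 16001 placed genes and the families. Both marks were at 75% of members in limb and 43.8% in forebrain, against 23.8% and 15.3% of placed genes.

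H3K27me3 was within 1 kb in both tissues at 17 members (53.1% against 15.3%), in limb but not forebrain at 8 (25% against 12.2%), and in forebrain but not limb at 0 (against 2.14%). The 8 were Wnt1, Wnt2, Wnt4, Wnt6, Wnt7a, Wnt10b, Fzd3 and Fzd10. Wnt2, Wnt4, Wnt6, Wnt7a and Fzd3 had both marks in limb and H3K4me3 alone in forebrain. Wnt1 and Wnt10b had both in limb and neither in forebrain, and Fzd10 went from H3K27me3 alone to neither. Wnt10a, Wnt11 and Fzd4 kept H3K27me3 but had no forebrain H3K4me3. Wnt8b, a ligand of the dorsal forebrain, was the reverse case for H3K4me3, with neither mark in limb and H3K4me3 alone in forebrain. All these states are those of the kept points. Relative to the kept point of Wnt5a, forebrain H3K27me3 lay at -3458 to -2474, 2187 to 4087 and 6095 to 8294 bp along the reference. The other point is 5932 bp away at higher coordinates. Limb H3K27me3 lay 2850 to 3994 bp from the kept point on that side. The limb list was the larger for H3K27me3, 45.8 Mb against 19.1 Mb in forebrain, and the part of list size in these differences was not tested.

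Around the ligands H3K27me3 was long. Summed over the 200 kb around each point, it covered a mean of 21.1 kb per member in limb against 8.69 kb per placed gene, and 8.06 kb against 2.77 kb in forebrain. The means rested on the ligands: medians were 7.38 kb against 3.88 kb in limb and 4.94 kb against 0.879 kb in forebrain. Wnt10a had the most, 66.0 kb in limb and 34.0 kb in forebrain, followed by its neighbour Wnt6 with 63.6 and 29.3 kb and Wnt9b with 62.1 and 17.1 kb. Ligands of a neighbouring pair share most of their 200 kb, so the same regions of any mark count for both. Wnt3a and Wnt9a, for example, each had 45.1 kb in limb and 10.7 kb in forebrain. Lengths with 1 member of each pair were not computed. Wnt7b had 51.7 kb in limb and 27.9 kb in forebrain, Wnt3 50.8 and 10.3 kb, Wnt11 49.7 and 8.19 kb, and Wnt1 44.4 and 13.2 kb. At the other end Wnt5a had 1.14 kb in limb and 5.08 kb in forebrain, and Fzd1 had none in either. No Fzd or Dkk gene passed 8 kb in limb, and Sfrp1 had 16.7 kb. Limb had more than forebrain at 23 of the 31 members with any (74.2% against 87.6% of 12349 placed genes). The 8 with more in forebrain were Wnt5a, Wnt16, Fzd4, Fzd5, Fzd7, Fzd8, Fzd10 and Dkk1.

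**Figure D5:**
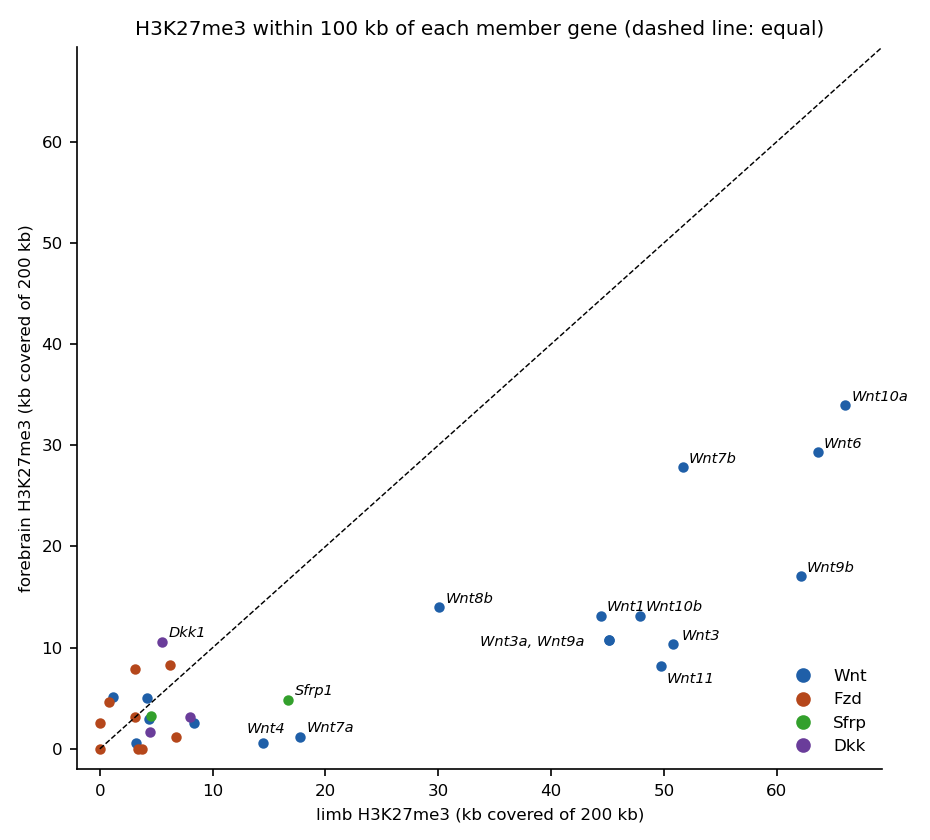
Kilobases of H3K27me3 within the 200 kb around each of the 32 WNT genes in limb (horizontal axis) and forebrain (vertical axis), coloured by family, with a dashed line of equality. Ligands reach 66.0 kb in limb at Wnt10a, and Sfrp1 with 16.7 kb is the only receptor or antagonist above 10 kb there.

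H3K4me1 was long around members too, whereas limb H3K27ac was not. H3K4me1 covered a mean of 29.3 kb of the 200 kb per member in limb against 19.7 kb per placed gene, and 15.2 kb against 11.2 kb in forebrain. Wnt11 had the most in limb, 75.8 kb, and Wnt7b the most in forebrain, 41.6 kb. H3K4me3 covered 9.08 kb against 9.13 kb in limb and 8.69 kb against 9.01 kb in forebrain as means, but 8.04 kb against 6.56 kb and 8.33 kb against 6.62 kb as medians. Limb H3K27ac covered 4.37 kb against 5.32 kb, and Wnt5a, whose start had no limb H3K27me3 within 1 kb, had the most of it, 14.2 kb.

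SMARCA4 peaks near members often overlapped H3K27me3. In forebrain 42 of the 65 distinct peaks did so in limb or forebrain, 64.6% (95% Clopper-Pearson interval 51.8 to 76.1%) against 41.7% of the whole list. With H3K27me3 of the same tissue only, it was 32 of 65 in forebrain (49.2% against 26.8%) and 18 of 38 in limb (47.4% against 37.9%). The other tissues had no H3K27me3 list of their own, and the values that follow pool limb and forebrain H3K27me3. In neural tube it was 56 of 87, 64.4% (53.4 to 74.4%) against 35.9%. Limb had 52.6% (35.8 to 69.0%) against 42.6%, face 66 of 213 (24.8 to 37.7%) against 22.5% and heart 12 of 63 (10.2 to 30.9%) against 12.5%. SMARCC2 of face had 54.5% (42.8 to 65.9%) against 36.5%. These intervals treat each peak as a separate draw, although several peaks often lie near 1 member. H3K27me3 was also longer around members than placed genes, with means of 21.1 against 8.69 kb in limb and 8.06 against 2.77 kb in forebrain. Its part in the overlap was not tested. With these limits, the interval lay above the whole list for forebrain, neural tube, face and SMARCC2 of face. It spanned the list for limb, heart and the 3 lists with few such peaks. The lists with few such peaks were hindbrain, 8 of 22 (17.2 to 59.3%) against 24.6%, ESC, 3 of 15 (4.33 to 48.1%) against 11.3%, and midbrain, 2 of 9 (22.2%) against 26.2%. Limb H3K27ac was overlapped by 44.6% of forebrain SMARCA4 peaks near members against 59.7% of the list, and by 50% against 68.4% in limb. The share of SMARCA4 peaks over a control or input region also differed from the list in some tissues. In neural tube it was 79.3% near members (69.3 to 87.3%) against 67.8%, with the interval above the list. It was 68.2% against 52.8% in hindbrain and 26.7% against 9.49% in ESC, 48.8% against 46.4% in face, 73.8% against 78.7% in forebrain, 89.5% against 86.7% in limb, 25.4% against 20.9% in heart and 22.2% against 32.3% in midbrain. In these 7 the interval spanned the list, and the part of the controls in the H3K27me3 overlap was not tested.

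Receptors made up all the members whose starts lacked H3K4me3 in limb and forebrain. No H3K4me3 lay within 1 kb in limb or forebrain at 5 members, Fzd1, Fzd7, Fzd8, Fzd9 and Fzd10 (15.6% against 26.6% of placed genes). SMARCA4 of 2 or more tissues nevertheless covered the points of 4 of them, Fzd1, Fzd8, Fzd9 and Fzd10 (12.5% against 1.29%). The nearest limb H3K4me3 was 620.5 kb from Fzd1, 235.9 kb from Fzd8, 23 kb from Fzd7, 3.4 kb from Fzd10 and 2.4 kb from Fzd9. In forebrain the distances were 620.8, 235.8, 33.5, 48 and 1.6 kb. Fzd7 and Fzd8 had limb H3K27ac without H3K4me3 (6.25% against 1.29%). Among genes with neither mark, limb SMARCA4 covered the point of Fzd1, Fzd8 and Fzd9, 3 of 5, against 2.44% of such placed genes. Forebrain SMARCA4 covered Fzd1, Fzd7, Fzd8 and Fzd10, 4 of 7, against 4.34%. Among members with both marks the counts were 6 of 24 in limb against 36.3% and 9 of 14 in forebrain against 43%. The tables do not say which transcript start a point is, and Ctnnb1 and Celsr1 also had points with neither mark in both tissues.

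Merging SMARCA4 peaks of all 8 lists gave 266 regions near members of 52787 in all. Of these, 161 were in 1 tissue (60.5% against 68.6%): 103 in face, 33 in heart, 11 in neural tube, 6 in ESC, 4 in midbrain, 3 in forebrain, 1 in hindbrain and 0 in limb. Regions of face alone were 38.7% of those near members against 36.1% of all regions, of heart alone 12.4% against 13.7%, of neural tube alone 4.14% against 6.06% and of ESC alone 2.26% against 8.75%. Heart-alone regions were most frequent at Wnt11 (5), Wnt2b (4) and Sfrp1 (3). Wnt11 had 14 of its 16 regions in 1 tissue. Regions in 6 tissues were the Wnt5b start and chr15:38906901-38909550, 70.3 kb from Fzd6.

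Of 47 other genes of the pathway (co-receptors, R-spondins, further antagonists, intracellular components and nuclear factors), 41 were placed. Their peak ratio to placed genes was 1.26 in face, 0.994 in forebrain, 1.75 in midbrain, 1.45 in heart and 0.970 in ESC for SMARCA4, and 1.59 for SMARCC2 in face. In heart Ror2, a WNT receptor tyrosine kinase, had 12 peaks, Prickle1 10, Ryk 9 and Csnk1a1 9. The highest counts in face were 15 at Sost and 15 at Notum, both antagonists, and Notum also had 9 in neural tube and 6 in limb. Both H3K4me3 and H3K27me3 were within 1 kb of 14 of the 41 in limb (34.1%) and 16 in forebrain (39%). The shares were 75% and 43.8% for the 32 WNT genes, and 23.8% and 15.3% for placed genes. Components such as Axin1, Axin2, Apc and Gsk3b had H3K4me3 alone in both tissues.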

How the data were processed

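Members and gene lists were chosen with earlier results of these data known. Per the submitters' processing notes, BWA was used with the mm9 build, with no version given; the peak caller is not given in the sources used here. Of the deposited lists, 16 are tables that give, per the file headers, each peak's count of tags, a score from its p-value, a fold enrichment ratio and a false discovery rate in percent. Other deposited lists hold positions and a rank only. These values are the authors' and only describe peaks within a list. Library depth is unknown. Not analysed here were the SMARCA4 controls of neural tube, limb, heart and forebrain, which leaves 30 of 34 samples.

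A gene's point was summit plus or minus distance where at least 2 summits agreed. Peaks counted for a gene when their midpoint lay within 100 kb (surroundings) or 1 kb (start) of it. Histone regions were taken to be at a start when any base lay within 1 kb. Lists overlapped from 1 bp. Intervals are exact 95% Clopper-Pearson intervals and cover counting error only. The point-finding step was tested on simulated data. Python 3.11.15, NumPy 2.4.6 and SciPy 1.17.1 were used. Values in every SMARCA4 list were given for the 10 Wnt, 4 Fzd, 3 Sfrp and 2 Dkk members with most SMARCA4 peaks (2 Sfrp were placed), the member with most peaks in each list, and members whose histone state differed between limb and forebrain, at least by that state. With 1 library per condition there were no tests and no p-values. Alternatives were another reach, other ways to assign peaks, lists of equal length and lists without peaks over controls.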

Additional observations from a re-analysis of the deposited data

How the results depend on the processing

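No paired analysis was possible because the labels give no replicate numbers and each condition had 1 library. Members with a peak, summed over the 14 FLAG lists, numbered 273; 153 were left without peaks over a control or input, and 85 at equal list length (1414 peaks each). Peaks summed over members numbered 804, and were 423 within 50 kb, 485 without peaks at gene starts and 316 without peaks over controls. They were 97 at equal length and 335 by nearest gene, where each peak went only to the nearest placed gene within 100 kb. The share of all FLAG peaks near members was 0.549%, and was 0.289% within 50 kb, 0.468% without peaks over controls, 0.275% by nearest gene and 0.429% at equal length. Of the 105 start pairs, 8 were left without peaks over controls and 18 at equal length. Of 126 recomputed ratios of members to placed genes, 119 stayed on their side of 1. At equal length SMARCA4 gave 0.885 in face, 0.614 in forebrain and 0.743 in limb, each now under 1, and 0.141 in ESC. By nearest gene SMARCA4 gave 2.58 in forebrain, 1.12 in hindbrain and 1.10 in heart, the last 2 now above 1, SMARCC2 2.34 in hindbrain, NCOA1 0.451 and NCOA2 0.442. Within 50 kb SMARCA4 midbrain gave 0.902, now under 1, EP300 face 0.345 and NCOA2 0.332. Without peaks at starts NCOA1 gave 0 and NCOA2 1.34, now above 1; without peaks over controls both gave 0. Equal length and the removal of peaks leave fewer peaks by construction; otherwise the cause was not tested. Alternatives chosen after seeing the data included leaving out the midbrain and hindbrain SMARCA4 lists, which gave 250 pairs, 770 peaks and 98 start pairs, and keeping 1 member of each neighbouring pair, which gave 657 peaks. SMARCC2 in face ranged from 1.55 to 2.36. A looser placement would have added Dkk4 and Sfrp4.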
